A study of Mus musculus with 40 samples.

Results

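Calmodulin, calcineurin and calcium/calmodulin-dependent kinase IV were followed in single mouse spermatocytes through 8 genes, chosen by name from the 55492 genes of the deposited count table. They are the calmodulin genes Calm2 and Calm3, the calcineurin catalytic subunits Ppp3ca, Ppp3cb and Ppp3cc, the calcineurin regulatory subunits Ppp3r1 and Ppp3r2, and the kinase gene Camk4. All 8 were found in the table. The data are 20 libraries labelled Metaphase I and 20 labelled Pachytene, each made from 1 cell. The testes came from mice of the strain C57BL/6J that were 6 to 8 weeks old. Spermatocytes were enriched by centrifugal elutriation, and the protocol names culture with 4 µM okadaic acid, an inhibitor of the phosphatases PP1 and PP2A, for 5 h as the step that brings cells to metaphase I. That protocol text stands on the libraries of both groups, so whether Pachytene cells were also cultured is not known, and meiotic stage, drug and time in culture cannot be told apart. The labels name no animal or culture, so a group counts as 1 sample and its cells describe a spread without allowing a test.

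Calmodulin is the main intracellular calcium sensor: with calcium bound, it opens and activates enzymes that are silent without it. Calcineurin, also called protein phosphatase 2B, is such an enzyme, made of a catalytic A subunit that binds calmodulin and a regulatory B subunit that itself binds calcium. Most cells use Ppp3ca or Ppp3cb with Ppp3r1, whereas male germ cells also make a testis form from Ppp3cc and Ppp3r2, and mice that lack Ppp3cc or Ppp3r2 have stiff, poorly motile sperm and infertile males. Camk4 encodes a calmodulin-activated kinase, and an internal promoter in the same gene gives the testis protein calspermin. Calcineurin is far less sensitive to okadaic acid than PP1 and PP2A.

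The members fall into gene families, so the start of the coding sequence is shown for Calm2 and Calm3 and for the regulatory subunits. Since 3′ ends were sequenced, the coding bases cannot show whether counted reads of these genes could be mixed up. Their 3′ ends were not compared. These are the first 120 bases of the GENCODE M21 coding sequence on GRCm38, 5′ to 3′, with capitals at positions where the genes shown together differ. Calm2 and Calm3 each have a coding sequence of 450 bases in 6 coding exons.
Calm2: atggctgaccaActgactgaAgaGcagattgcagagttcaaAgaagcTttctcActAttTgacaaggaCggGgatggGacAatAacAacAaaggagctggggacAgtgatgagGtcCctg
Calm3: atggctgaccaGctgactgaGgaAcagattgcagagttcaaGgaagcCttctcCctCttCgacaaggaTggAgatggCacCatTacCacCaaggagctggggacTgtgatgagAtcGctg
Calm2 and Calm3 differed at 18 of these 120 positions, and all 18 lay at the third base of a codon. Over the whole coding sequence, Calm2 was 82.7% identical to Calm3, with 372 equal and 78 unequal positions.

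The regulatory subunits differ more, and also in gene structure. Ppp3r2 has 540 coding bases in 2 coding exons, 509 of them in 1 exon, whereas Ppp3r1 has 513 coding bases in 6 coding exons.
Ppp3r2: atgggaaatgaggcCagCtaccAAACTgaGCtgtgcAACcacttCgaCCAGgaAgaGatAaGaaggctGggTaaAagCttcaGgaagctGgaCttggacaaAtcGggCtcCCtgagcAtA
Ppp3r1: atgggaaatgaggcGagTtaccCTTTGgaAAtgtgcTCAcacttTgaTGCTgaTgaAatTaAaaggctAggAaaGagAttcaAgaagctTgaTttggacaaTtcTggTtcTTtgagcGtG
Here 35 of the 120 positions differed, 23 of them at the third base of a codon. In a global alignment the coding sequences of Ppp3r2 and Ppp3r1 were 69.4% identical, with 375 equal positions, 138 unequal positions and 27 positions in gaps. Their promoters are shown because the counts of these genes lay far apart in the same cells. The 200 bases that end 51 bases before the RefSeq start (GRCm38.p6) lie at chr4:49682034-49682233 on the minus strand for Ppp3r2 and at chr11:17159048-17159247 on the plus strand for Ppp3r1, printed on the gene's strand with CpG dinucleotides in capitals.
Ppp3r2: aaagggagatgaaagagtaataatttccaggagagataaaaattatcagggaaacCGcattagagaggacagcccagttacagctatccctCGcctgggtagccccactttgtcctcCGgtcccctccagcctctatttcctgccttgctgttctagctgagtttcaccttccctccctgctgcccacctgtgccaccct
Ppp3r1: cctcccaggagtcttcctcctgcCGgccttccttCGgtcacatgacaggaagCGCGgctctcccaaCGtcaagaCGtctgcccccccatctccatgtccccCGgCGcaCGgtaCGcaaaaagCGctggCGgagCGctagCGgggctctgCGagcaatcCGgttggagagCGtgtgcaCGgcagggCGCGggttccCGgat
The Ppp3r2 window held 3 CpG at 52% GC, and the Ppp3r1 window held 21 CpG at 67% GC, against a median of 4 CpG and 51.5% GC over 27025 promoter windows of this length. Calm3 and Ppp3cb, the other members with a promoter entry, paired the other way. Calm3 had 26 CpG at 68% GC and 16305 counts in Metaphase I, and Ppp3cb had 5 CpG at 43% GC and 236 counts. A link between CpG and counts was not tested. The CRE half-site TGACG, searched on both strands, was found in 0 places in the Ppp3r2 window and in 1 in the Ppp3r1 window, at position -184 relative to the start. Of all promoter windows, 12.6% held it. Such a match describes letters only.

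The table counts reads or molecules per gene, and each level below is given per 1000000 counts (CPM) of a cell's or a group's total. Totals ran from 198117 to 1497037 counts in Metaphase I cells (median 540662) and from 165048 to 2325564 in Pachytene cells (median 730979). Markers of pachytene and diplotene (10 genes, among them Sycp3 and Hspa2) summed to between 2337 and 5865 CPM in Metaphase I cells and between 3629 and 5986 CPM in Pachytene cells. Genes of entry into metaphase (10 genes, among them Ccnb1 and Plk1) summed to between 913 and 3539 CPM in Metaphase I cells, against 957 to 3761 CPM in Pachytene cells. The groups overlapped over nearly their whole ranges in both lists, so these transcripts did not separate the labelled stages. In 8 libraries, X-linked genes held 0.470% to 1.48% (4 Metaphase I, replicates 3, 7, 17 and 19) or 0.741% to 1.19% of counts (4 Pachytene, replicates 2, 3, 7 and 19). The other 32 libraries were under 0.3%. Markers of round spermatids summed to 4598, 2781 and 2508 CPM in Metaphase I replicates 3, 7 and 17 and to between 3704 and 4699 CPM in those 4 Pachytene libraries, against at most 1364 CPM in the other 16 Metaphase I and 1353 CPM in the other 16 Pachytene libraries. Metaphase I replicate 19 instead held 15829 CPM of 12 Sertoli cell markers, with Amh, Rhox5 and Gata4 at 0. Metaphase I replicate 18 came next for these markers at 220 CPM, and also for Leydig cell markers at 47.6 CPM (162 CPM in replicate 19), and had the lowest sum of metaphase entry genes of all 40 cells. Each result is therefore given with all 40 cells and, where it moves, with these 8 libraries left out.

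The order of the members by summed counts was the same in both groups, both as CPM and per kb of exon. Summed CPM ran, Metaphase I first, from 2664 and 2123 for Calm2 to 3.21 and 3.45 for Camk4. Since 3′ ends were sequenced, counts need not grow with gene length, so values per kb can understate long genes. Per kb, Calm2 stood first with 1816 CPM per kb in Metaphase I and 1447 CPM per kb in Pachytene. Ppp3r2 (491 and 551 CPM per kb) and Calm3 (491 and 506 CPM per kb) followed, with the Metaphase I value first in each pair. Ppp3ca came next with 35.2 CPM per kb in Metaphase I and 37.8 CPM per kb in Pachytene. Ppp3cc had 24.0 CPM per kb in Metaphase I and 30.2 CPM per kb in Pachytene. Ppp3cb had 1.95 and 1.83 CPM per kb, Ppp3r1 1.31 and 1.10 CPM per kb, and Camk4 0.985 and 1.06 CPM per kb, again Metaphase I first. Calm2 exceeded Ppp3r2 per kb in 16 of 20 Metaphase I and 16 of 20 Pachytene cells, and 7 of the 8 exceptions were among the libraries high in X-linked counts. By CPM this pair lay closer. The medians over cells were 1671 CPM for Calm2 and 1677 CPM for Ppp3r2 in Metaphase I, and 2078 and 1770 CPM in Pachytene. Ppp3r2 and Calm3 did not separate, with Ppp3r2 higher per kb in 15 Metaphase I and 14 Pachytene cells. Calm3 exceeded Ppp3ca per kb in every cell of both groups. By CPM, Pachytene replicate 5 went the other way, with 1133 CPM of Ppp3ca and 1103 CPM of Calm3. Ppp3r1 and Camk4, the lowest pair, could not be ranked, since 13 Metaphase I and 12 Pachytene cells had no count of either. Among 16174 genes with at least 20 counts, Calm2 ranked 17 in Metaphase I and 25 in Pachytene by CPM. By CPM per kb it ranked 19 in Metaphase I and 27 in Pachytene.

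**Figure D1:**
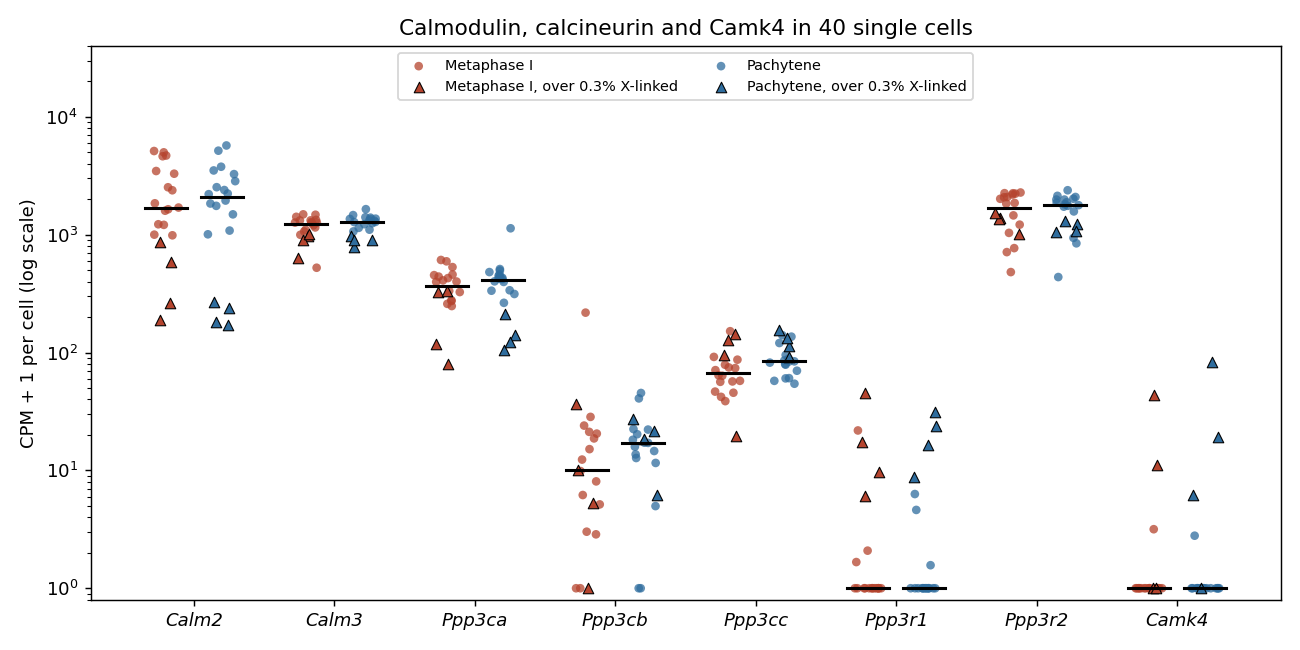
Level of each gene in each of the 40 cells, as CPM + 1 on a log axis, with Metaphase I cells left of Pachytene cells and a bar at the group median. Triangles are the 8 libraries with over 0.3% X-linked counts, which lie lowest for Calm2 in both groups and include the highest cell for Ppp3r1 and Camk4, while Metaphase I and Pachytene cells overlap for all 8 genes.

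Between the groups, none of the 8 members differed by over 2-fold in either direction. Of all 16174 measured genes, 8.49% were over 2-fold higher and 9.81% over 2-fold lower in Metaphase I, so the count of 0 of 8 is read against a background of few such genes and says little about the members. With the 8 libraries left out, 6 members still reached 20 counts and again 0 were over 2-fold, against 6.32% higher and 4.13% lower among 13451 genes. The median log2 ratio of the members was -0.06, and that of all genes was -0.00.

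**Figure D2:**
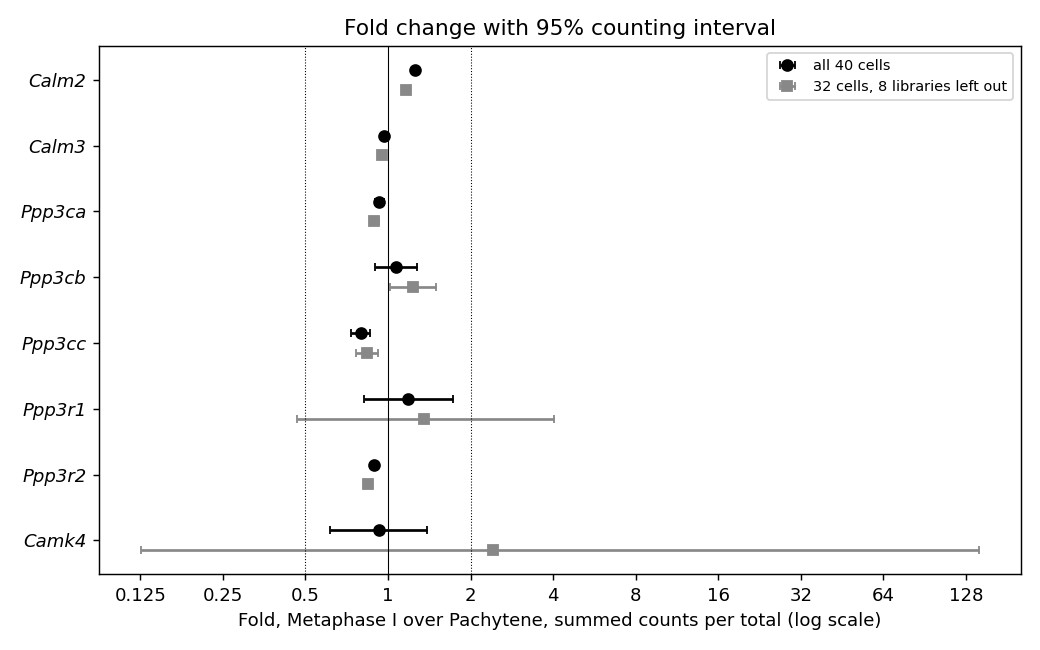
Fold of summed counts per total, Metaphase I over Pachytene, on a log axis, with 95% counting intervals (which leave out the spread between cells and animals). Black circles use all 40 cells and lie between 0.795 for Ppp3cc and 1.25 for Calm2, inside the dotted lines at 2-fold. Grey squares leave out the 8 libraries high in X-linked counts, where Ppp3r1 and Camk4 keep under 10 counts a group and their intervals cross those lines.

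Calm2 had the highest summed level of the members, and its level differed widely between cells. Calm2 (chr17:87433412-87446935, minus strand) had its lowest Metaphase I cell at 186 CPM, the median at 1671 CPM and the highest at 5131 CPM, against 170, 2078 and 5718 CPM in Pachytene cells. The ranges of the groups were nearly the same, and each spanned a more than 20-fold difference between cells. Summed over cells, Calm2 stood at 2664 CPM in Metaphase I and 2123 CPM in Pachytene, a fold of 1.25 (95% counting interval 1.24 to 1.27). That direction depended on how cells were weighed: the ratio of medians over cells was -0.31 on the log2 scale, and equal weight per cell gave 0.02. The lowest Calm2 levels were all in libraries high in X-linked counts, at 170 to 268 CPM in those 4 Pachytene cells, against 1007 CPM or more in the other 16 Pachytene cells. In Metaphase I the same kind of libraries held 186, 262, 584 and 859 CPM in replicates 3, 7, 17 and 19, against 988 CPM or more in the other 16. Without these 8 libraries, Calm2 had 3121 CPM in Metaphase I and 2684 CPM in Pachytene, a fold of 1.16 (1.15 to 1.18).

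Calm3 (chr7:16915379-16924114, minus strand) was far more even. It ran from 524 to 1488 CPM in Metaphase I cells (median 1229 CPM) and from 787 to 1647 CPM in Pachytene cells (median 1281 CPM), with overlapping groups and a coefficient of variation over cells of 22.3% in Metaphase I and 17.7% in Pachytene, against 73.1% and 71.6% for Calm2. Its summed level was 1189 CPM in Metaphase I and 1225 CPM in Pachytene, a fold of 0.971 (0.951 to 0.991). The authors' counting of reads that match several calmodulin genes is not known, and the levels of Calm2 and Calm3 are uncertain to that extent.

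Because Calm2 and Calm3 encode the same protein, their ratio says which of them supplied more of the message. Of the counts of Calm2 and Calm3 together, Calm2 took 69.1% in Metaphase I (exact 95% binomial interval 68.7% to 69.5%) and 63.4% in Pachytene (63.0% to 63.8%). Within single cells the Calm2 share ran from 16.1% to 80.8% in Metaphase I (median 59.9%) and from 15.6% to 80.4% in Pachytene (median 62.2%). The medians over cells were in the opposite order to the summed shares, and the groups overlapped over nearly their whole ranges. In the 4 Metaphase I libraries high in X-linked counts, Calm2 took 35.5% (33.9% to 37.2%), and in the 4 such Pachytene libraries 17.9% (16.8% to 19.1%). The other 16 Metaphase I cells had 71.3% Calm2 (70.9% to 71.7%) and the other 16 Pachytene cells 67.0% (66.6% to 67.4%). Spermatid RNA was high in 7 of those 8 libraries, and its part in the low Calm2 share was not tested.

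**Figure D3:**
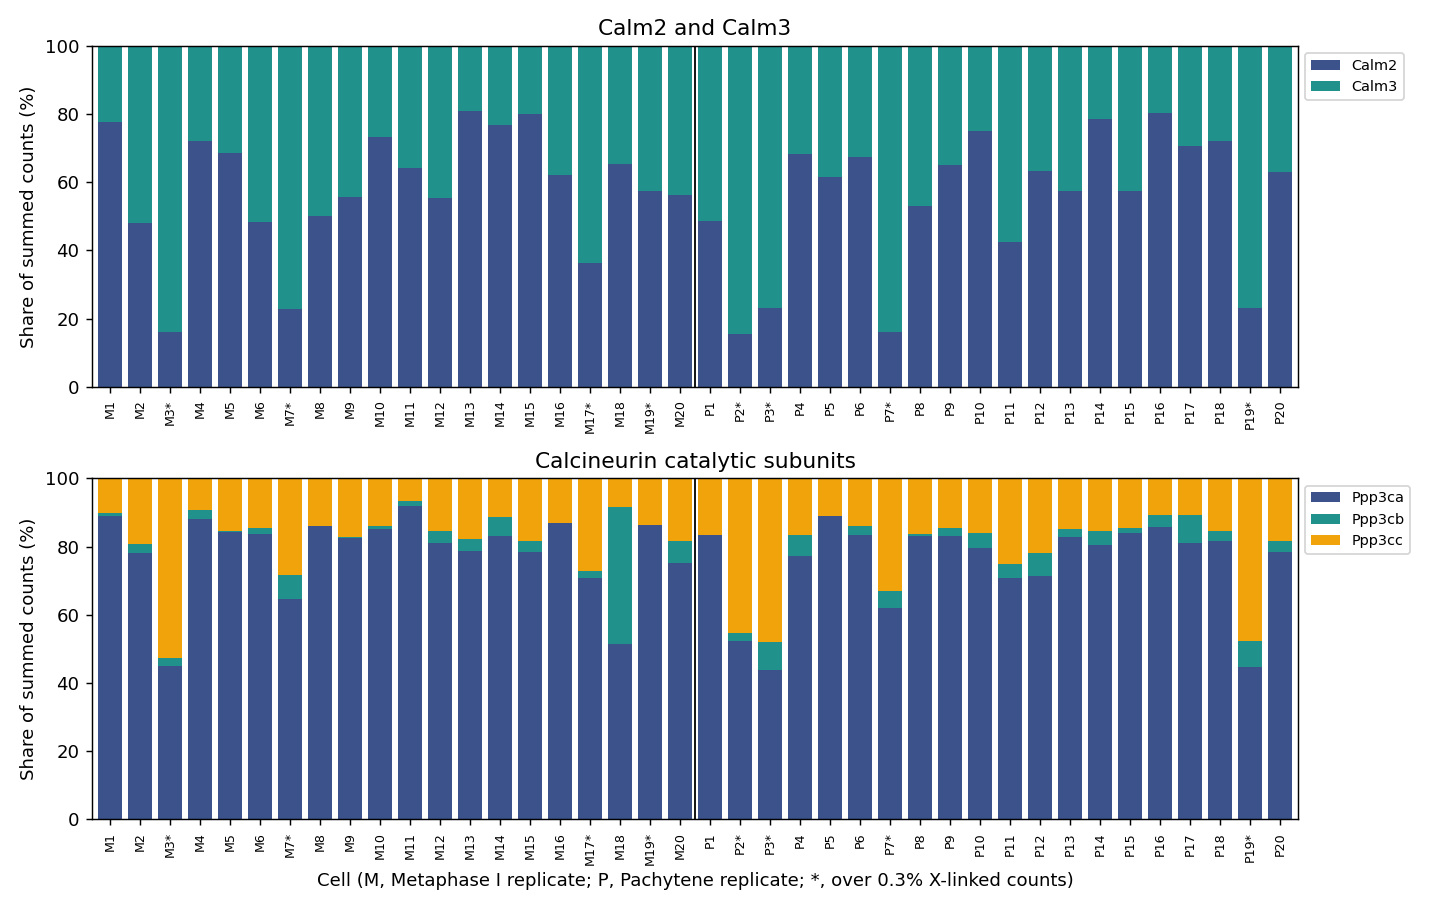
Share of summed counts in each cell (percent), of Calm2 and Calm3 (top) and of the calcineurin catalytic genes Ppp3ca, Ppp3cb and Ppp3cc (bottom), with Metaphase I cells left of the line and Pachytene cells right of it. Asterisks mark the 8 libraries with over 0.3% X-linked counts, in most of which Calm2 is low and Ppp3cc high, and Metaphase I replicate 18 stands out by its Ppp3cb share of 40.3%.

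Among the other 32 cells, Calm2 varied with genes of the cell cycle in both groups. Its level ran against Ccnb1, the cyclin that drives entry into M phase, with a Spearman correlation of -0.80 over 16 Metaphase I cells and -0.76 over 16 Pachytene cells. Against Aurka, a kinase of spindle assembly, the correlation was -0.71 in Metaphase I and -0.69 in Pachytene. Other marker lists gave values of like size. Pachytene and diplotene markers had -0.53 and -0.55 with Calm2, and spermatogonia markers 0.51 and 0.65, Metaphase I first. Over all 40 cells Ccnb1 had -0.70 and Aurka -0.09. Among 4135 genes, the 5th and 95th percentiles of the correlation with Calm2 were -0.60 and 0.77. The cell with the highest Calm2, Pachytene replicate 16, had 5718 CPM of Calm2 and 12.7 CPM of Ccnb1. In Metaphase I the highest was replicate 1, with 5131 CPM of Calm2 and 4.15 CPM of Ccnb1. By contrast Metaphase I replicate 6 had 1000.3 CPM of Calm2 and 505 CPM of Ccnb1. Calm2 also ran with the total count of the cell in Metaphase I (0.65) but hardly in Pachytene (0.07), and all genes of a cell share 1 library and its depth, so these values describe the cells and are no test. The genes most like Calm2 over all 40 cells, among 4135 genes with enough counts, were Lypd10 (0.96), Cks2 (0.94), which encodes a binding partner of cyclin-dependent kinases, and Prok2 (0.93). Within each group these correlations ran from 0.91 to 0.98 in Metaphase I and from 0.91 to 0.96 in Pachytene. The genes were picked over these same cells, so the values within groups are no separate check. For Calm3 the most alike were Mrpl42 (0.78), Drc3 (0.77) and Eif1b (0.76). Without the 8 libraries these fell to 0.67, 0.58 and 0.57. Among 4135 genes, the 95th percentile of the correlation with Calm3 was 0.60.

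The calcineurin catalytic genes were led by Ppp3ca (chr3:136670124-136937727, plus strand), the form typical of brain and many other tissues. Ppp3ca ran from 79.7 to 609.5 CPM in Metaphase I cells (median 365 CPM) and from 105 to 1133 CPM in Pachytene cells (median 410 CPM). The groups overlapped, and Pachytene replicate 5 was alone above the rest of its group. That cell had 187 counts of Ppp3ca in the smallest library of all, with 165048 counts and 7264 genes detected. It also held 1024 CPM of elongating spermatid markers. The summed level of Ppp3ca was 351 CPM in Metaphase I and 377 CPM in Pachytene, a fold of 0.931 (0.897 to 0.966). Summed, libraries high in X-linked counts held 169 CPM in Metaphase I and 173 CPM in Pachytene, against 389 CPM and 436 CPM in the remaining Metaphase I and Pachytene cells. In Metaphase I these libraries were split. Replicates 3 and 19 held 79.7 and 118 CPM, but replicates 7 and 17 held 323 and 330 CPM, inside the 247 to 610 CPM of the other 16 cells. The genes most like Ppp3ca over 40 cells were Tcfl5 (0.78), a transcription factor of spermatocytes, Zbtb32 (0.75) and Sec22a (0.71). Without the 8 libraries these fell to 0.69, 0.55 and 0.52. The 95th percentile of the correlation with Ppp3ca among 4135 genes was 0.49.

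Ppp3cc (chr14:70217865-70289471, minus strand), the catalytic subunit of the sperm enzyme, was detected in all 40 cells. It ran from 18.5 to 151 CPM in Metaphase I cells (median 66.5 CPM) and from 53.4 to 153 CPM in Pachytene cells (median 83.9 CPM). The groups overlapped, and the lowest Metaphase I cell, replicate 19, is the library with Sertoli markers. Summed, Ppp3cc had 71.6 CPM in Metaphase I and 90.0 CPM in Pachytene, the lowest fold of the members at 0.795 (0.733 to 0.861). Without the 8 libraries it had 69.2 CPM in Metaphase I and 82.2 CPM in Pachytene, a fold of 0.841 (0.767 to 0.923). Unlike Ppp3ca, its summed level was higher in the libraries with X-linked counts, at 82.9 CPM in Metaphase I and 117 CPM in Pachytene. Ppp3cc ran with round spermatid markers over all 40 cells (0.60), and less so without the 8 libraries (0.35). In Pachytene it ran against Calm2 also within the other 16 cells (-0.77), which was weak in Metaphase I (-0.11). Arl6ip6 (0.77), Akap12 (0.75), which encodes an anchoring protein for protein kinase A, and Ppp1r32 (0.73) were most like it. Without the 8 libraries these fell to 0.64, 0.65 and 0.57. The 95th percentile of the correlation with Ppp3cc among 4135 genes was 0.49. Ppp3cc shares 91 exon bases with Gm49417 on the opposite strand, which had 65 counts in all, against 2571 for Ppp3cc.

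Ppp3cb (chr14:20499364-20546573, minus strand), the remaining catalytic gene, was scarce. It ran from 0 to 217 CPM in Metaphase I cells (median 9.02 CPM) and from 0 to 44.4 CPM in Pachytene cells (median 16.2 CPM), with counts in 17 of 20 Metaphase I and 18 of 20 Pachytene cells. The top value, in Metaphase I replicate 18, carried 30.9% of the group's 236 counts, and no other cell of either group passed 44.4 CPM. Its fold was 1.07 (0.897 to 1.28) with that cell, and its log2 ratio was -0.37 without it. Replicate 18 is the library second in Sertoli and Leydig cell markers and lowest in metaphase entry genes (913 CPM), whose part in this value was not tested. Snf8 (0.66), a subunit of the sorting complex ESCRT-II, was the gene most like Ppp3cb, ahead of Dnajc24 (0.54) and Nsd3 (0.50). The 95th percentile of the correlation with Ppp3cb among 4135 genes was 0.26.

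The share of the sperm form in calcineurin A differed more between kinds of library than between labels. Of the counts of Ppp3ca, Ppp3cb and Ppp3cc together, Ppp3cc took 16.3% in Metaphase I (exact interval 15.4% to 17.2%) and 18.6% in Pachytene (17.8% to 19.5%). Without the 8 libraries the shares were 14.5% in Metaphase I (13.6% to 15.5%) and 15.4% in Pachytene (14.6% to 16.2%), with overlapping intervals. Within the 4 libraries of each group high in X-linked counts, Ppp3cc took 32.1% in Metaphase I (28.4% to 35.9%) and 38.0% in Pachytene (35.3% to 40.8%). Ppp3cc took over 50% of these counts in 1 Metaphase I cell and 0 Pachytene cells. Dividing by exon length (9981 bases for Ppp3ca, 2985 for Ppp3cc) raises its share to 39.2% in Metaphase I and 43.2% in Pachytene. Since 3′ ends were sequenced, these larger shares are not a measure of message. On that scale Ppp3cc exceeded Ppp3ca in 3 Metaphase I and 6 Pachytene cells. All 3 of those Metaphase I cells and 4 of those 6 Pachytene cells were libraries high in X-linked counts.

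The RNA counts of the regulatory subunit were almost entirely of the testis form. Ppp3r2 (chr4:49678747-49682024, minus strand), a gene of 2 exons inside the span of Grin3a on the same strand, ran from 481 to 2280 CPM in Metaphase I cells (median 1677 CPM) and from 436 to 2383 CPM in Pachytene cells (median 1770 CPM). The ranges overlapped almost fully. It shares 0 exon bases with Grin3a, which had 28 counts in all. Summed, Ppp3r2 had 1486 CPM in Metaphase I and 1669 CPM in Pachytene, a fold of 0.891 (0.875 to 0.907). Without the 8 libraries the levels were 1525 CPM and 1808 CPM, Metaphase I first, a fold of 0.843 (0.827 to 0.860), while equal weight per cell gave a log2 ratio of 0.01 in all 40 cells.

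Ppp3r1 (chr11:17159263-17200375, plus strand), the regulatory subunit of most tissues and the one with the CpG-rich promoter shown above, was counted 58 times in Metaphase I and 63 times in Pachytene. It had a count in 7 of 20 Metaphase I and 7 of 20 Pachytene cells, among them all 8 libraries high in X-linked counts. These 8 held 49 of the 58 Metaphase I counts and 55 of the 63 Pachytene counts, and the highest single value was 44.0 CPM in Metaphase I replicate 19, the library with Sertoli markers. Its median was 0 CPM in both groups. The fold was 1.19 (0.816 to 1.72), and the log2 ratio was -0.57 without Metaphase I replicate 19. Ppp3r1 also shares 462 exon bases with Wdr92 on the same strand, which had 1922 counts, so its low count is uncertain. Ppp3r2 exceeded Ppp3r1 in every cell and took 99.7% of regulatory subunit counts in Metaphase I (99.6% to 99.8%) and 99.8% in Pachytene (99.7% to 99.8%). Its lowest share in a single cell was 95.9% in Metaphase I and 97.7% in Pachytene. These shares rest on the uncertain Ppp3r1 count, which their intervals do not cover.

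Ppp3r2 also varied with genes of the cell cycle, in the opposite direction to Calm2, and with markers of other stages. Over the 16 Metaphase I and 16 Pachytene cells outside the 8 libraries, its correlation with the sum of the 10 metaphase entry genes was 0.76 in Metaphase I and 0.68 in Pachytene, where Calm2 had -0.60 and -0.62. It ran likewise with round spermatid markers, at 0.82 in Metaphase I and 0.68 in Pachytene. Against spermatogonia markers it had -0.85 in Metaphase I and -0.66 in Pachytene. Over all 40 cells its correlation with the metaphase entry genes was 0.74. Among 4135 genes, the 5th and 95th percentiles of the correlation with Ppp3r2 were -0.48 and 0.73. Metaphase I replicate 13 had the lowest Ppp3r2 of its group (481 CPM) beside 4633 CPM of Calm2, and Metaphase I replicate 20 the highest (2280 CPM) beside 1699 CPM of Calm2. Pachytene replicate 5, the smallest library, was the lowest of its group at 436 CPM (72 counts) and the highest in Ppp3ca. Pdzd9 (0.92), Arl4a (0.90) and Tomm22 (0.90), which encodes a receptor of the mitochondrial outer membrane import complex, were the genes most like Ppp3r2 over 40 cells.

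**Figure D4:**
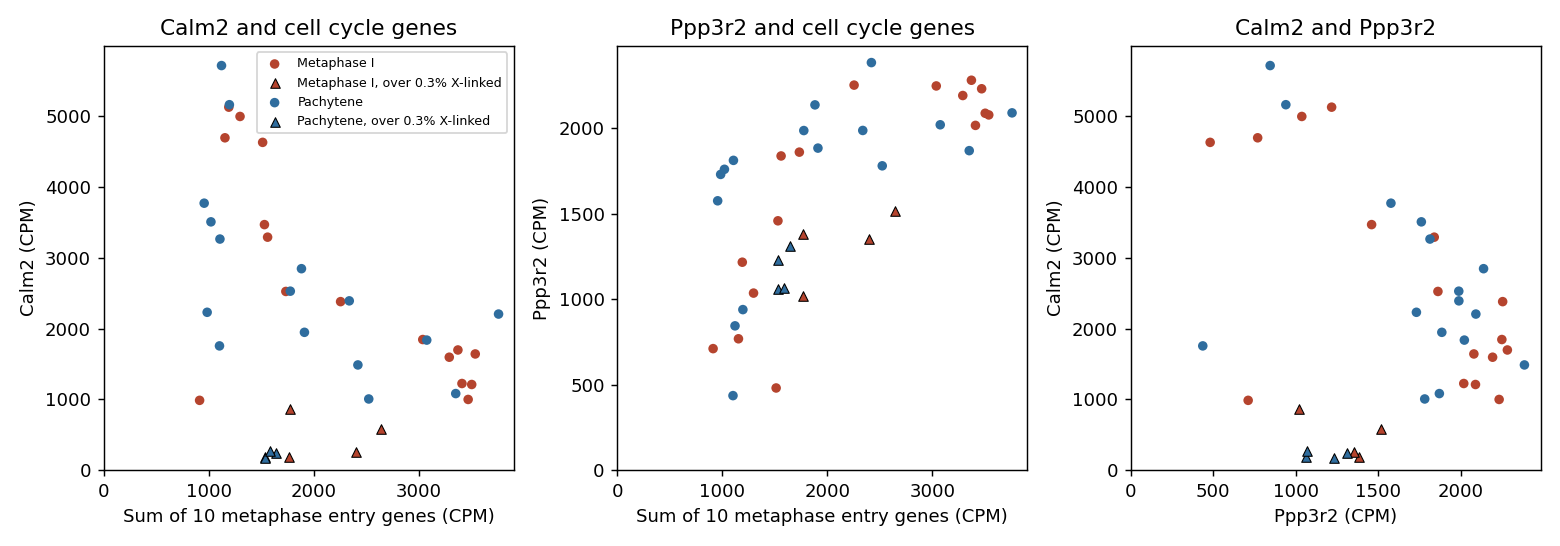
Calm2 against the sum of 10 metaphase entry genes (left), Ppp3r2 against the same sum (middle) and Calm2 against Ppp3r2 (right), all in CPM, with 1 point per cell. Outside the 8 libraries, Calm2 runs against the metaphase entry genes and Ppp3r2 with them in cells of both labels. The 8 libraries with over 0.3% X-linked counts (triangles) have the lowest Calm2, at 170 to 859 CPM, with Ppp3r2 between 1020 and 1517 CPM.

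Camk4 (chr18:32934931-33191228, plus strand) was at the edge of detection, with 44 counts in Metaphase I and 61 in Pachytene. It had counts in 3 of 20 Metaphase I cells and 4 of 20 Pachytene cells, and its median was 0 CPM in both groups. Metaphase I replicate 3 (43.1 CPM) held 90.9% of its group's counts and Pachytene replicate 19 (82.0 CPM) held 78.7%, and both are libraries high in X-linked counts and in spermatid markers. Outside those 8 libraries Camk4 had 2 counts in Metaphase I and 1 in Pachytene, a ratio of 2.41 with a counting interval of 0.126 to 142. Its fold with all cells was 0.929 (0.616 to 1.39). Leaving out Metaphase I replicate 3 gave a log2 ratio of -1.76 and leaving out Pachytene replicate 19 gave 1.26, so its direction rested on which of these cells was counted. Counts at the 3′ end cannot tell the kinase from calspermin. Of its exon bases, 72 overlap 2310026I22Rik on the opposite strand, which had 7 counts.

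**Figure D5:**
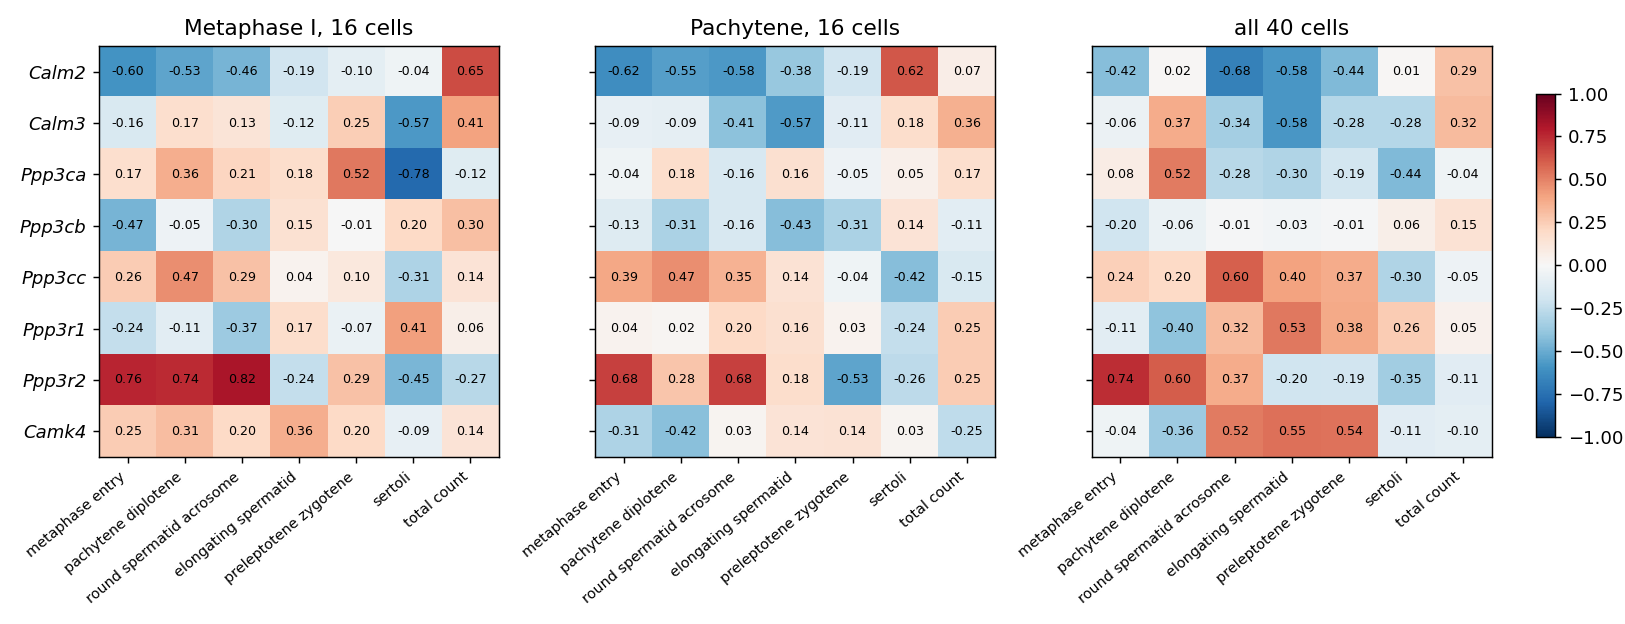
Spearman correlation of each gene's CPM with the summed CPM of 6 marker lists and with the total count of the cell, over the 16 Metaphase I and the 16 Pachytene cells outside the 8 libraries high in X-linked counts and over all 40 cells. Ppp3r2 runs with metaphase entry and round spermatid genes in both groups (0.68 to 0.82) and Calm2 against them (-0.46 to -0.62), while Camk4 reaches 0.55 with elongating spermatid genes only when all 40 cells are used.

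Around the members, 5 lists of genes that regulate, bind or are acted on by calmodulin and calcineurin were set against the same background of 8.49% higher and 9.81% lower. Of the regulators and substrates of calcineurin, 19 of 24 were measured, 4 were over 2-fold higher in Metaphase I (Rcan1, Nfatc1, Nfatc3 and Mef2a) and 0 were lower, and the median log2 ratio was 0.03. Rcan1, an inhibitor of calcineurin whose own transcription calcineurin raises, had 22.5 CPM in Metaphase I and 7.13 CPM in Pachytene, a fold of 3.15 (2.55 to 3.91). Of its Metaphase I counts 69.5% came from replicate 19, and without that library the fold was 1.01 (0.767 to 1.33). Mef2a, a transcription factor activated by calcineurin, had 32.1 CPM in Metaphase I and 13.4 CPM in Pachytene, a fold of 2.40 (2.05 to 2.83), and 1.91 (1.61 to 2.27) without replicate 19. Dnm1, a GTPase of endocytosis dephosphorylated by calcineurin in nerve endings, had 2.84 CPM in Metaphase I and 4.98 CPM in Pachytene. Without replicate 19, 0 of 18 measured members of this list were over 2-fold higher and 2 were lower (Crtc3 and Mef2d), beside 5.06% of all genes higher and 10.2% lower. Spata33, which anchors the sperm enzyme to mitochondria in mice and was picked from this list after its values were seen, was abundant at 933 CPM in Metaphase I and 1084 CPM in Pachytene, a fold of 0.860 (0.841 to 0.880).

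Of the calmodulin-dependent kinases and their inhibitors, 17 of 21 were measured, 3 were over 2-fold higher (Camk1d, Camk2d and Camkk1) and 1 was lower (Camkk2), with a median log2 ratio of -0.18. Camk2d, a subunit of CaM kinase II, had 5.54 CPM in Metaphase I and 1.36 CPM in Pachytene, and 88.2% of its Metaphase I counts came from replicate 19. Without that library its fold was 0.509 (0.208 to 1.13). Camk1d had 11.5 CPM in Metaphase I and 3.91 CPM in Pachytene, and its fold without replicate 19 was 1.06 (0.730 to 1.54). Camkk2, which phosphorylates and activates CaM kinases I and IV, had 1.60 CPM in Metaphase I and 5.44 CPM in Pachytene, and Pachytene replicate 7 held 69.8% of the Pachytene counts. Its fold was 0.295 with all cells, 0.849 (0.465 to 1.53) without that library and 0.113 (0.0475 to 0.232) without Metaphase I replicate 19. Without the 8 libraries 0 of 15 measured genes of this list were over 2-fold higher and 2 were lower (Camk1g and Camk2n2). Beside them, 6.32% of all genes were higher and 4.13% lower without those libraries. Camkk2 was left with 5 counts in Metaphase I and 0 in Pachytene.

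Other calmodulin-like and calmodulin-binding genes had 23 of 31 members measured, 2 higher (Marcks and Aspm) and 2 lower (Iqgap2 and Cabyr), with a median log2 ratio of 0.19. Aspm, a spindle pole protein that binds calmodulin, had 25.9 CPM in Metaphase I and 9.62 CPM in Pachytene, a fold of 2.69 (2.23 to 3.25), and 3.19 (2.56 to 4.00) without the 8 libraries. Its median over cells was 16.7 CPM in Metaphase I and 7.18 CPM in Pachytene. Cabyr, a calcium-binding protein of the sperm tail sheath, had 85.9 CPM in Metaphase I and 212 CPM in Pachytene, and its fold was 0.405 with all cells (0.379 to 0.433) and 0.879 (0.663 to 1.16) without the 8 libraries. Its fold was 0.754 (0.700 to 0.812) without Pachytene replicate 7 alone and 0.116 (0.103 to 0.130) without Metaphase I replicate 3 alone. Pde1a, a calmodulin-activated phosphodiesterase, had 49.9 CPM in Metaphase I and 93.4 CPM in Pachytene, a fold of 0.534, and 0.930 (0.781 to 1.11) without those libraries. The fold was 0.960 with Pachytene replicate 7 left out and 0.290 with Metaphase I replicate 3 left out, and the gene passed 2-fold in that last case and, at 0.492, with Pachytene replicate 6 left out.

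Of the calcium channels, pumps and store proteins, 39 of 45 were measured, 4 were over 2-fold higher (Itpr1, Itpr3, Atp2b1 and Atp2c1) and 7 were lower (Orai3, Plcz1, Plcb1, Catsper3, Catsper4, Efcab9 and Calr3), with a median log2 ratio of 0.05. Atp2b1, a plasma membrane calcium pump, had 190 counts in 7 Metaphase I cells and 0 in Pachytene. Replicate 19 held 77.9% of them. The exact 95% counting interval of the fold began at 65.7 with all cells and at 14.8 without replicate 19, where 42 counts stood against 0. The observed Metaphase I level was 81.6 times a floor of 3 counts over the Pachytene group and, without replicate 19, 19.0 times. These ratios leave out the counting error of the Metaphase I counts and are no lower limits. Efcab9, the calcium-sensing partner of the sperm channel CatSper, had 57.6 CPM in Metaphase I and 176 CPM in Pachytene, a fold of 0.327 (0.302 to 0.354). Without the 8 libraries its fold was 1.05 (0.768 to 1.43), without Pachytene replicate 7 alone 0.605 (0.554 to 0.660) and without Metaphase I replicate 3 alone 0.121 (0.107 to 0.137). Catsper4, a pore subunit of that channel, had 23.7 CPM in Metaphase I and 63.9 CPM in Pachytene, a fold of 0.371 (0.327 to 0.420), and 0.667 (0.372 to 1.17) without the 8 libraries. Its fold was 0.713 (0.618 to 0.821) without Pachytene replicate 7, 0.208 without Metaphase I replicate 3 and 0.246 without Metaphase I replicate 17. Without the 8 libraries, 4 of 36 measured genes of this list were higher (Itpr1, Itpr3, Atp2b1 and Micu2) and 2 were lower (Stim2 and Calu). The shares over all genes without those libraries were 6.32% higher and 4.13% lower. Plcb1 and Calr3 then had too few counts to be measured.

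The last list holds transcription factors downstream of CaM kinase IV and its known substrates, all 9 of them measured, with 0 higher and 2 lower (Fhl5 and Prm2) and a median log2 ratio of -0.01. Prm2, a protamine that CaM kinase IV phosphorylates, had 4.52 CPM in Metaphase I and 13.6 CPM in Pachytene, a fold of 0.331 (0.247 to 0.440), and 0.277 (0.189 to 0.399) without the 8 libraries. It was counted in 6 Metaphase I and 9 Pachytene cells, and Pachytene replicate 1, which is not among the 8, held 42.7% of the Pachytene counts. Without that cell, which had 649 CPM of elongating spermatid markers, the fold was 0.564 (0.411 to 0.766) and no longer over 2-fold. Fhl5, the testis coactivator of CREM, drew 92.3% of its Metaphase I counts from replicate 3 and 51.6% of its Pachytene counts from replicate 7. It had 21.7 CPM in Metaphase I and 46.2 CPM in Pachytene, a fold of 0.469 (0.409 to 0.536), and 0.316 (0.147 to 0.625) without the 8 libraries, where it had 11 counts in Metaphase I and 42 in Pachytene. With Pachytene replicate 7 left out the fold was 0.841 (0.721 to 0.980), and with Metaphase I replicate 3 left out it was 0.0390 (0.0246 to 0.0589). With a log2 ratio of -1.06 it lay just past 2-fold, and leaving out any 1 of 11 other cells brought it within 2-fold. Crebbp, a histone acetyltransferase and coactivator of CREB, had 34.6 CPM in Metaphase I and 22.0 CPM in Pachytene, a fold of 1.57 (1.37 to 1.80). Of its 475 Metaphase I counts 35.6% came from replicate 18, and without that library, whose Sertoli and Leydig cell markers are given above, the fold was 1.04 (0.892 to 1.21). The median over cells was 15.8 CPM in Metaphase I and 14.7 CPM in Pachytene.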

How the data were processed

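Modified STRT-seq libraries of 40 single testis cells were analysed. Per the submitters' processing notes, the reads went through STAR, UMI-tools and featureCounts on GRCm38, with no version named. What the authors deposited is 1 table of unnormalized counts for each gene. The sources used here do not say whether reads or molecules were counted, with which strand setting or on which annotation release. Each of its 40 columns of values carries the name of 1 library. All 780 pairs of libraries differed beyond sampling noise (chi-square per degree of freedom at least 2.69, from 11047 genes).

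Counts were summed per group and divided by the summed total (CPM). Sums have exact Poisson, folds exact conditional binomial and shares exact (Clopper-Pearson) intervals, all at 95%. They cover counting error only and are too narrow if counts are reads. The log2 ratio uses a pseudocount of 1 CPM, over 2-fold means beyond 1 in absolute log2 ratio, and a gene was measured from 20 summed counts. No p-value was computed. Where a library of 1 cell holds markers of another cell type, which of its counts come from that type cannot be told. No doublet caller was run.

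Members and lists were chosen with earlier results of these data known. Of 130 entries in the 5 pathway lists, 130 were in the table, and of 86 marker entries, 85 were. Besides the members, the text names up to 3 genes per pathway list with the largest absolute log2 ratio and at least 100 counts, and, for members with at least 500 counts, the 3 genes with the highest Spearman correlation over 40 cells among genes with at least 1000 counts and a count in at least 30 cells. Mitochondrial, ribosomal protein and unnamed genes were left out of the correlations. List members over 2-fold with all 40 cells are named in full, and Ccnb1, Aurka and Spata33 were picked after their values were seen. A gene listed in the plan is not reported here.

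Coordinates were taken as deposited and count from 1. All 8 members have the same span in GENCODE M21, from which coding sequences were read, and 4 have an entry among the RefSeq promoters (GRCm38.p6). The code was tested on simulated counts. Python 3.11.15, numpy 2.4.6, pandas 2.3.3, scipy 1.17.1 and matplotlib 3.10.9 were used, and scaling factors came from edgeR 4.0.16 and DESeq2 1.42.0 in R 4.3.3 as alternatives only. Other alternatives were the weight of cells, totals, pseudocount, count minimum, thinning to 340000 counts (17 Metaphase I and 19 Pachytene cells kept), the 8 libraries over 0.3% X-linked counts left out, and each of the 40 cells left out in turn.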

Additional observations from a re-analysis of the deposited data

How the results depend on the processing

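No paired analysis was possible because the replicate numbers name single cells and no label ties a Metaphase I cell to a Pachytene cell. Of 400 member log2 ratios under the alternatives, 398 stayed within 2-fold, and both exceptions were Camk4 (-1.76 when Metaphase I replicate 3 was left out, 1.26 when Pachytene replicate 19 was). Leaving out single cells thus gave 0 to 1 members higher and 0 to 1 lower. Not all of the 400 values were free to move. The count minimum does not enter a member's log2 ratio, so those settings repeat the main value. Ppp3r1 and Camk4 had a median of 0 CPM in both groups, which fixes their ratio of medians. Without the 8 libraries both fell under the count minimum, and the pseudocount held the log2 ratio of Camk4 at 0.13. The share of Ppp3cc in calcineurin A in Metaphase I and in Pachytene was 14.9% and 16.2% as the median over cells, 14.5% and 15.4% without the 8 libraries over 0.3% X-linked counts and, in Pachytene, 21.3% with equal weight per cell. The Ppp3r2 share of regulatory subunits was 99.5% and 99.6% with equal weight, 100% and 100% as the median, and 99.9% and 99.97% without those libraries. The Calm2 share of Calm2 and Calm3, which was 69.1% in Metaphase I and 63.4% in Pachytene, was 58.4% and 55.1% with equal weight, 59.9% and 62.2% as the median, 71.3% and 67.0% without those libraries and, in Metaphase I, 66.9% after thinning. Without single cells, Ppp3cc ran from 15.2% to 16.9% in Metaphase I and from 17.2% to 19.5% in Pachytene, Ppp3r2 from 99.66% to 99.86% in Metaphase I, and Calm2 from 66.9% to 70.2% in Metaphase I and from 60.8% to 65.5% in Pachytene.

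Numbers of list genes over 2-fold moved with several choices, and so did the background. Of all genes measured, 0.884% were higher and 1.58% lower with a pseudocount of 10 CPM, the lowest shares of 10 alternatives. The highest were 8.92% higher, with totals without mitochondrial and ribosomal protein genes, and 10.5% lower, with TMM scaling. Without the 8 libraries they were 6.32% and 4.13%. Leaving out single cells gave 5.06% to 9.63% higher and 3.91% to 14.8% lower. The numbers below are not set beside the share of each setting, so they describe the choice of setting and are no result about the lists. For calcineurin regulators and substrates, the number higher was 2 with equal weight or a count minimum of 100 and 0 with medians, a pseudocount of 10 CPM or without the 8 libraries, and the number lower was 1 with medians and 2 after thinning or without those libraries. Leaving out single cells gave 0 to 5 higher and 0 to 2 lower. For the kinases, the number higher was 1 with medians and 0 with the larger pseudocount or without the 8 libraries. The number lower was 2 with TMM or median-of-ratios scaling or without the 8 libraries, 3 after thinning and 0 with the larger pseudocount, and single cells gave 0 to 3 higher and 0 to 2 lower. For other calmodulin genes, the number higher was 1 with medians, after thinning, without the 8 libraries or with a count minimum of 100, and 0 with the larger pseudocount. The number lower was 0 with medians or without the 8 libraries and 1 with the larger pseudocount or the count minimum of 100, and single cells gave 1 to 3 both ways. For channels and pumps, the number higher was 2 with medians or after thinning and 1 with the larger pseudocount or the count minimum of 100, and the number lower was 1 with medians and 2 with the larger pseudocount or without the 8 libraries, with 2 to 6 higher and 2 to 9 lower when single cells were left out. For the CREM, CREB and Camk4 list, the number higher was 1 with equal weight or medians, the number lower was 1 with medians and 0 with the larger pseudocount, and single cells gave 1 to 3 lower. The cause was not tested. Ppp3r1 and Camk4 had the fewest counts of the members, most of them in the 8 libraries. Over 40 cells their correlations with the total count of the cell were 0.05 and -0.10. For a gene with 0 counts in a group, which neither of them was, up to 3 counts are allowed. That is 0.219 CPM in Metaphase I and 0.170 CPM in Pachytene.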
